A study of Mus musculus with 44 samples.

Results

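The libraries described here come from bone marrow-derived macrophages (BMDMs), macrophages grown in culture from the bone marrow of wild-type C57BL/6 mice, and ask what an inhibitor of the kinase TBK1 changes while the cells respond to KLA. KLA (Kdo2 lipid A) is the lipid core of bacterial lipopolysaccharide and triggers the receptor TLR4. The compared groups are TBK1i_KLA, in which cells received the inhibitor and KLA, and DMSO_KLA, in which they received the solvent DMSO and KLA, with 2 libraries each. A further group of 2 libraries, DMSO_Veh, received DMSO and vehicle, and all 3 groups were treated for 6 h and carry the same date stamp. The study's methods name the inhibitor as GSK8612, added when serum was withdrawn and before KLA. No group received the inhibitor without KLA, so an effect on the resting cell and an effect on the response to KLA cannot be told apart. All genes of the count table are members. Of the 24940 genes listed, the same number as in the whole series, 12332 had enough counts to be tested.

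TBK1 is a serine/threonine kinase that sits downstream of TLR4, of TLR3 and of the cytosolic sensors of viral RNA and DNA. When TLR4 has been taken up into endosomes, it signals through the adaptors TRAM (Ticam2) and TRIF (Ticam1), and TBK1 and its relative IKKε (Ikbke) then phosphorylate the transcription factor IRF3. IRF3 switches on Ifnb1, and the secreted interferon β acts back on the same cells through its receptor, JAK kinases, STAT proteins and IRF9 to induce the interferon-stimulated genes. At the plasma membrane, TLR4 uses MyD88 and TRAF6 to activate NFκB and MAP kinases, which drive Tnf, Il1b, Ptgs2 and the negative feedback genes Nfkbia and Tnfaip3. The study also places TBK1 downstream of TRAF6 and proposes that TBK1 raises the activity of the deacetylase HDAC3.

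The shallowest of the 6 libraries held 8984445 gene counts and the deepest 12616572, with 83.73% to 86.4% of mapped reads counted, and a count of 3 corresponded to 0.301 to 0.347 CPM in the 4 libraries with KLA. Levels are given as CPM, counts scaled to library size with edgeR's TMM factors, for the libraries in the order of their replicate numbers, and floors cover counting error only. Log2 fold changes are TBK1i_KLA over DMSO_KLA, each with its SE. The labels do not say whether the libraries of a group came from separate cultures or animals, so p-values measure the spread between these samples, which may be technical. Replicates correlated at 0.9895 to 0.9939 on the log2 CPM scale, and each pair differed by more than sampling noise. All 8 macrophage markers were present in the 4 KLA libraries, with Spi1, Cd68, Adgre1 and Itgam at 592 CPM or above. Fcgr1 and Mertk were called lower in TBK1i_KLA and Csf1r and Lyz2 higher, and all 4 are described with the macrophage genes. Markers of other cells summed to 11.5 to 12.7 CPM (neutrophil), 7.72 to 14.9 CPM (T cell), 1.44 to 3.21 CPM (B cell), 2.78 to 6.32 CPM (dendritic cell) and at most 0.116 CPM (mast cell or basophil, erythroid cell) in these libraries. Fibroblast markers summed to 48.9 and 46.3 CPM in DMSO_KLA and to 31.3 and 28.5 CPM in TBK1i_KLA, with 3 of 5 tested members called lower and Lum below the filter. Of the others, none of 4 tested neutrophil markers and not the 1 tested B cell marker was called, Lck (T cell) and Clec9a (dendritic cell) were lower, and Cd4 and Zbtb46 were higher. Cd3d, Cd3e, Cd3g, Cd8a and Flt3 did not pass the filter, and 5 of 6 erythroid markers had no count in the KLA libraries. The part of these markers in the results was not tested.

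The effect of the inhibitor was broad, and its strongest part went down. In edgeR's quasi-likelihood test, 2260 genes (18.3% of those tested) were called lower and 1852 (15.0%) higher, 33.3% in all, where a call means an adjusted p below 0.05 and a change of more than 1.5-fold. Lowered genes changed by a median of 2.46-fold and raised genes by a median of 1.96-fold. Changes of more than 16-fold were found in 183 lowered genes (8.1% of the lowered) and in 24 raised genes (1.3% of the raised). Among genes averaging at least 5 CPM in TBK1i_KLA or DMSO_KLA, the same counts were 149 and 3. The levels of TBK1i_KLA and DMSO_KLA did not overlap for 76.3% of tested genes, so a lack of overlap by itself says little here. The median log2 fold change of all tested genes was 0.01. The split depends on the scaling. The TMM factors were 1.315 and 1.319 for DMSO_Veh, 0.771 and 0.764 for DMSO_KLA and 0.991 and 0.987 for TBK1i_KLA. TBK1i_KLA was not tested against DMSO_Veh, so statements on the 2 compare CPM levels only and depend on this scaling. With TMM, 55.0% of the calls were lower. With upper quartile scaling the median of all genes moved to 0.14 and 43.1% of the calls were lower, and with library totals alone the median was 0.377 and 26.4% were lower. In bulk RNA, fewer cells of a type and less RNA per cell cannot be told apart.

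**Figure D1:**
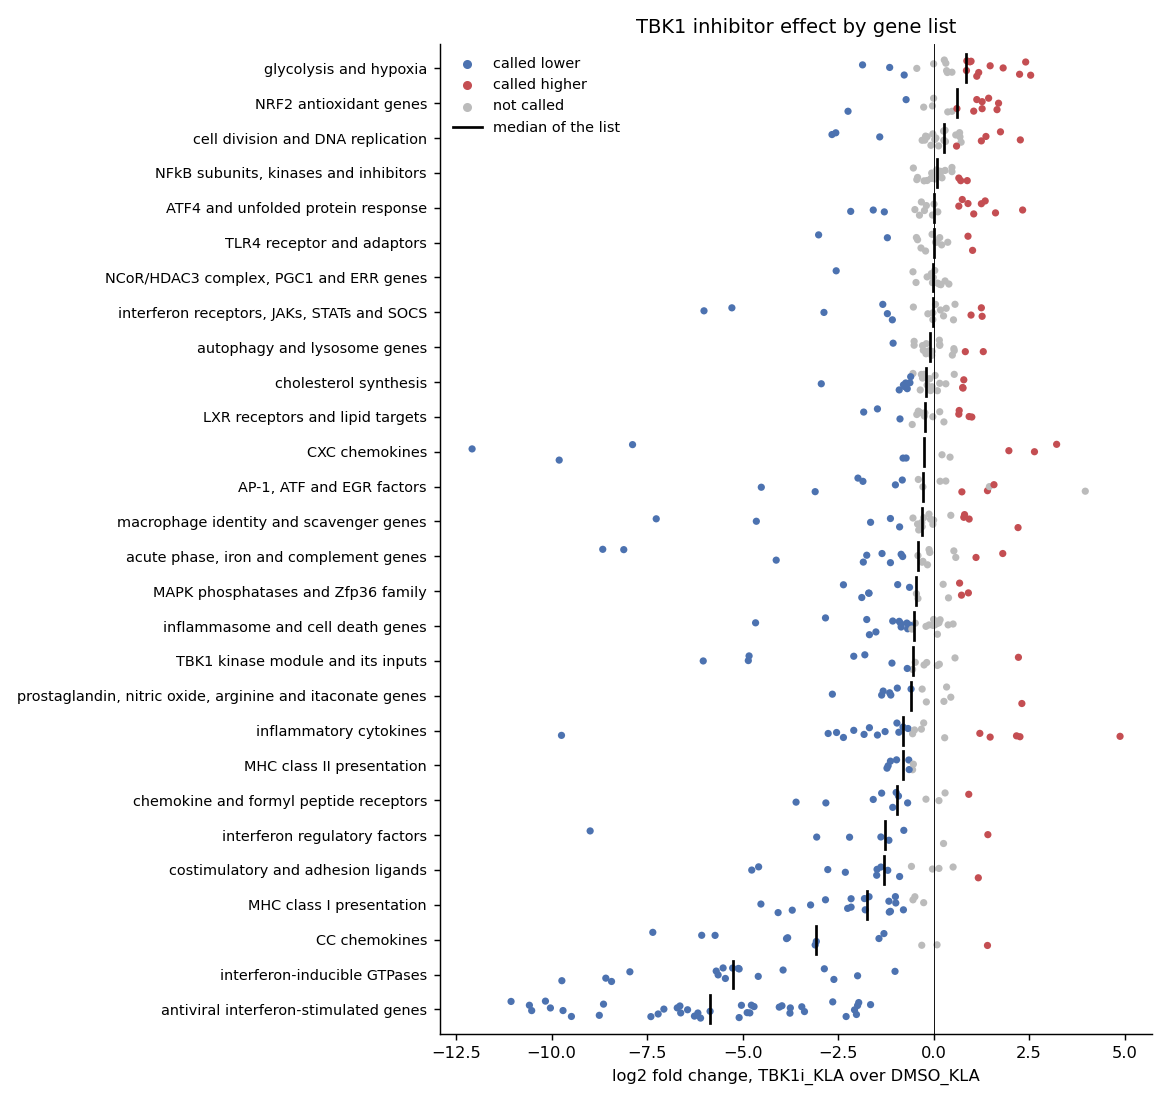
Log2 fold change of TBK1i_KLA over DMSO_KLA (x axis) for the tested members of 28 gene lists (y axis), with 1 point per gene, blue for genes called lower, red for genes called higher, grey for genes not called, and a black bar at the list's median. The antiviral interferon-stimulated genes (39 of 39 called lower, median -5.85) and the interferon-inducible GTPases (17 of 17, median -5.26) lie at the far left, whereas the 21 NFκB subunits, kinases and inhibitors lie around 0 (median 0.08).

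Of 14 genes of TLR4 and its adaptors, 2 were called lower and 2 higher (median log2 fold change 0.0), shares near the 18.3% and 15.0% of all tested genes. Cd14, the co-receptor that hands lipid A to TLR4, had 2637 and 2726 CPM in DMSO_KLA and 5339.7 and 5523 in TBK1i_KLA. Both treated libraries were above both control libraries, and the log2 fold change was 1.02 ± 0.03. The adaptor Ticam2 rose as well (0.90 ± 0.06), while Myd88 fell (-1.21 ± 0.05). Cd180, an inhibitory homologue of TLR4, fell from 621 and 650.4 CPM to 83.0 and 74.8 CPM. That was below its levels of 285 and 275 CPM without KLA. Irak4 (0.05 ± 0.11) and Traf6 (-0.04 ± 0.08) had the smallest changes of the list.

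Transcripts of the kinase itself were only modestly lower. Tbk1 had 87.5 and 92.9 CPM in DMSO_Veh, 233 and 249.96 in DMSO_KLA and 163 and 167 in TBK1i_KLA. The treated libraries lay between the vehicle and the KLA libraries without overlap. The log2 fold change was -0.55 ± 0.05 (adjusted p = 6.99e-27), short of the 1.5-fold threshold, which it passed only without DMSO_KLA replicate 1 (-0.61). Ikbke had 754 and 745 CPM in DMSO_KLA and 469.6 and 458 in TBK1i_KLA, a called fall of 1.62-fold that was lost with upper quartile scaling (-0.56) and with library totals (-0.33). In the whole list of 15 genes of the TBK1 module and its inputs, 7 were called lower and 1 higher (median -0.55), and 2 were higher without DMSO_KLA replicate 1 or without TBK1i_KLA replicate 1. Of all tested genes, 18.3% were lower and 15.0% higher. The lowered members of the list included the sensors that feed into TBK1. Ddx58 (RIG-I, a sensor of viral RNA) went from 1152 and 1162 CPM to 15.2 and 20.5 CPM, a log2 fold change of -6.03 ± 0.06. Tlr3 (-4.85 ± 0.08), Ifih1 (MDA5, -4.83 ± 0.05) and Mb21d1 (the DNA sensor cGAS, -2.09 ± 0.13) also fell. Sqstm1, which encodes the autophagy receptor p62, was the exception and rose from 898 and 939 to 4271 and 4283 CPM (2.22 ± 0.04). Mavs (0.15 ± 0.09) and Tbkbp1 (0.10 ± 0.09) had the smallest differences.

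Ifnb1 was listed at 0 counts in both TBK1i_KLA libraries. It had 45 and 41 counts (4.97 and 4.74 CPM) in DMSO_KLA and none in DMSO_Veh. Against a floor of 3 counts per library this is at least 15.2-fold lower, and the gene was called (adjusted p = 2.35e-18). It was the only one of 20 listed interferon genes of type I and III with enough counts to be tested, and 18 of the 20 had no count in any KLA library. Its promoter is shown here because it is a well known target of the TBK1 and IRF3 axis, a choice made after its values were seen. The stretch up to the start, in the gene's direction (RefSeq, GRCm38.p6, chr4:88522795-88523044, minus strand), was searched on both strands for an NFκB motif (GGGAA or GGGGA, 3 bases of any kind, then CC) and for the core of the ISRE, the interferon-stimulated response element (GAAA, 2 bases of any kind, then GAAA). It held the NFκB motif, in capitals, 116 to 107 bases before the start, and no ISRE core as spelled here.

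Ifnb1: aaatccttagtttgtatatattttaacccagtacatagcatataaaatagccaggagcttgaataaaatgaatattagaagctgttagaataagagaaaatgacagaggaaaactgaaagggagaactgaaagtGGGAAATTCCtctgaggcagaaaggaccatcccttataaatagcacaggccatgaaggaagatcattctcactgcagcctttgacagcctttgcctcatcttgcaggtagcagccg

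Most of the tested IRF genes fell, beside 18.3% lower and 15.0% higher among all tested genes. Irf7, which amplifies interferon production, had 27.1 and 22.8 CPM in DMSO_Veh, 2264 and 2271 in DMSO_KLA and 3.61 and 5.41 in TBK1i_KLA. The treated libraries were below both other groups. The log2 fold change against DMSO_KLA was -8.99 ± 0.07, a 507-fold difference. Of 8 tested IRF genes, 6 were called lower, 1 higher (Irf4, 1.88 and 1.62 to 5.11 and 4.29 CPM) and 1 not called. The lowered genes included Irf8 (-3.06 ± 0.06), Irf9 (-2.20 ± 0.07), Irf2 (-1.38 ± 0.06) and Irf1 (-0.78 ± 0.04, not called with library totals). Irf3, the direct substrate of TBK1, had 34.3 and 32.9 CPM in DMSO_KLA and 38.4 and 42.4 in TBK1i_KLA (0.26 ± 0.10, not called).

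Stat2, which pairs with IRF9 in the complex that acts on interferon-stimulated genes, had 1014 and 1015 CPM in DMSO_KLA and 139 and 139.7 in TBK1i_KLA, beside 62.1 and 58.3 in DMSO_Veh. It fell 7.29-fold and stayed above vehicle. Usp18, a negative regulator of the interferon receptor, fell too (-6.01 ± 0.06). Of 19 interferon receptors, JAKs, STATs and SOCS genes, 6 were called lower and 3 higher (median -0.02), beside 18.3% and 15.0% of all tested genes. With library totals, 6 were lower and 7 higher. With TMM, the raised genes were Cish (1.27 ± 0.07), Stat5a (1.25 ± 0.04) and Ifngr1 (0.98 ± 0.05). Socs1 fell from 225 and 202 to 81.9 and 88.0 CPM (-1.33 ± 0.06), whereas the related feedback inhibitor Socs3 was at 2002 and 1997 CPM in DMSO_KLA against 1894 and 2064 in TBK1i_KLA (-0.02 ± 0.03). The kinase gene Jak2 also showed little difference, with 912 and 949 CPM in DMSO_KLA against 912 and 922 in TBK1i_KLA. Without KLA, Socs3 had 2.71 and 2.88 CPM and Jak2 39.9 and 39.1, so both stood far above vehicle with the inhibitor present.

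All 39 tested members of a list of 40 antiviral interferon-stimulated genes were called lower, beside 18.3% of all tested genes. Their log2 fold changes ran from -11.06 to -1.65 with a median of -5.85, and Ifi44l was not tested. The summed level of the 40 genes was 53600 and 55200 CPM in DMSO_KLA, 2580 and 2560 CPM in TBK1i_KLA and 1730 and 1670 CPM in DMSO_Veh. Rsad2 (viperin, which makes a chain-terminating nucleotide) alone accounted for 11100.0 and 11287 CPM in DMSO_KLA and had 6.22 and 8.46 CPM in TBK1i_KLA. Ifit2, which binds foreign RNA, went from 5476 and 5736 to 5.61 and 5.08 CPM, and Cmpk2 from 5244 and 5345 to 6.02 and 3.05 CPM. All 3 were lower in TBK1i_KLA than in DMSO_Veh, where Rsad2 had 27.1 and 28.5 CPM. Mx1 (-7.40 ± 0.06), Ifit1 (-8.64 ± 0.06), Isg15 (-6.44 ± 0.06) and Oasl1 (-10.52 ± 0.09) fell as well. The smallest falls were those of Dtx3l (-1.65 ± 0.04) and Parp9 (-1.96 ± 0.04), a pair that works as a ubiquitin ligase complex.

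The 17 tested interferon-inducible GTPases, which attack the vacuoles of intracellular microbes, were all called lower (median -5.26, or -5.09 with the 3 members at or under the floor set to their bound). Iigp1 fell from 527 and 572 CPM to 0.902 and 0.338 CPM and Gbp4 from 168 and 179.9 to 1.10 and 0.226. Gbp5 stood apart from the rest, with 3204 and 3479 CPM in DMSO_KLA and 1688 and 1634 in TBK1i_KLA. Its fall of 2.01-fold left it far above the 3.08 and 3.13 CPM of DMSO_Veh. Gbp7 (-1.99 ± 0.04) was the next smallest. Members of this family share sequence, and reads of near-identical copies such as Tgtp2 are uncertain. Gbp11 was at 0 in both treated libraries and at least 11.7-fold lower.

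Promoters of lowered genes are shown to let the ISRE core, the repeat bound by IRF factors, be seen in place. The 3 genes are those with the largest fitted fall among genes of at least 5 CPM whose promoter holds it on either strand. Genes on the chromosome that carries Ppargc1b were not eligible, here or for the raised gene below. Ifit1bl1 is an IFIT family gene and had 191 and 213 CPM in DMSO_KLA and 1 count in each TBK1i_KLA library. BC147527 had 141 and 143 counts against 0 and 0, at least 50.3-fold lower, so its fitted fold and its place in that order rest on 0 counts, and reads of its near-identical copies are uncertain. Each line gives the stretch up to the start in the gene's direction, with motif matches in capitals. The intervals are chr19:34601969-34602218 (minus strand) for Ifit1bl1, chr12:26456453-26456702 (minus strand) for Rsad2 and chr13:120300142-120300391 (plus strand) for BC147527.

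Ifit1bl1: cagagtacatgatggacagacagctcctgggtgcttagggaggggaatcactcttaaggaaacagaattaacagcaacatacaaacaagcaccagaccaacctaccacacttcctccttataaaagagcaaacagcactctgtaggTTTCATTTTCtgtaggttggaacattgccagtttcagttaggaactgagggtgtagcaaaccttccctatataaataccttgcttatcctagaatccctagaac

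Rsad2: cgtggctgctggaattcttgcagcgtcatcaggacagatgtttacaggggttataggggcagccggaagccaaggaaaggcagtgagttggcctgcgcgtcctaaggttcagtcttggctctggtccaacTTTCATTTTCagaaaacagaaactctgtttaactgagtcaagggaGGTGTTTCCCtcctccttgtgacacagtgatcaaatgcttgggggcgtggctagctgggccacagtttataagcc

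BC147527: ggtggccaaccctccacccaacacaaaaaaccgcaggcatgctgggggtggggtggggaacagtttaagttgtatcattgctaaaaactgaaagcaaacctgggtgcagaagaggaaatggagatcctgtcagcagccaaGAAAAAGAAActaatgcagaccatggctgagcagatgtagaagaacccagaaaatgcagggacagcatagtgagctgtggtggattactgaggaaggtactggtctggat

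The ISRE core lay 104 to 95, 120 to 111 and 110 to 101 bases before the start in Ifit1bl1, Rsad2 and BC147527. It read on the opposite strand in Ifit1bl1 and Rsad2 and on the gene's own strand in BC147527. These promoters were picked for holding the core, and its position was not compared with that in other promoters. Rsad2 also held an NFκB match, 75 to 66 bases before the start. Among raised genes, Il23a had the largest change of genes at 5 CPM or more but no entry in the promoter table. The next was Plcl1, an inositol phosphate-binding protein gene (0.994 and 1.16 CPM in DMSO_KLA, 17.8 and 20.0 in TBK1i_KLA), whose promoter (chr1:55405696-55405945, plus strand) held neither motif.

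Plcl1: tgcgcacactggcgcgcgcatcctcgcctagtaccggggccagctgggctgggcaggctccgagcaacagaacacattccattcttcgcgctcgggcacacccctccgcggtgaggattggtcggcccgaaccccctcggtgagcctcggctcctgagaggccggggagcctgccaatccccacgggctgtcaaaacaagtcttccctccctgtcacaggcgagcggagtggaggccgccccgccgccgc

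In the whole table of 32851 promoters of equal length (which also take in 50 bases after the start), 3.44% held the ISRE core and 10.6% an NFκB motif, on either strand. A promoter could be had for 79.3% of tested genes and for 76.9% of lowered genes. With promoters of the remaining genes missing, motif shares of lowered and other genes are not compared here. A match is a description of the letters and not a site of binding.

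**Figure D2:**
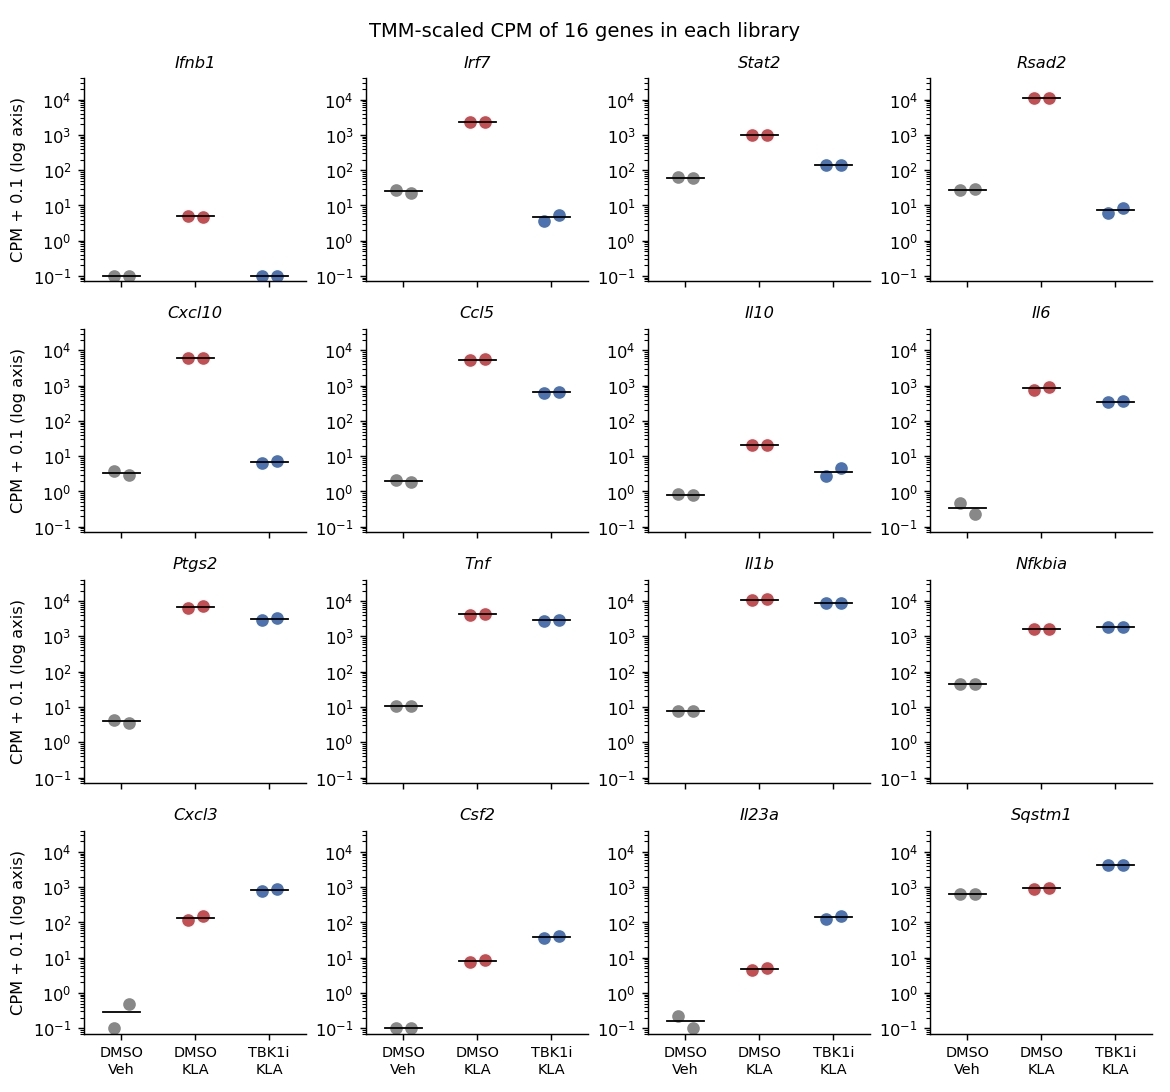
TMM-scaled CPM plus 0.1 on a log axis (y) of 16 genes in the 6 libraries, grouped on the x axis as DMSO_Veh (grey), DMSO_KLA (red) and TBK1i_KLA (blue), with 1 point per library and a line at the mean of each group. Irf7 and Rsad2 in TBK1i_KLA lie below DMSO_Veh, Il6 and Ptgs2 stay within a few fold of DMSO_KLA, and Cxcl3, Csf2, Il23a and Sqstm1 lie above it.

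Genes that interferon β itself raised, in other libraries of the series, were lowered far more often than all genes. In BMDMs from NCoR flox/flox mice without Cre, which the labels call WT, given interferon β for 6 h (WT_IFNb against WT_Veh, 2 libraries each), 549 genes (4.09% of 13407 tested) were called higher. Of these, 532 were tested with the TBK1 inhibitor, and 425 (79.9%) were called lower and 22 (4.14%) higher, with a median log2 fold change of -2.18 beside 0.01 for all tested genes. The fall was deeper where the response to interferon β was larger. Genes that interferon β raised by 1 to 2 on the log2 scale (n = 215) had a median TBK1 inhibitor effect of -2.52, those raised by 2 to 4 (n = 115) a median of -4.64, and the 16 raised by 4 to 6 a median of -7.28. All 16 of the last bin were called lower. Genes that interferon β did not raise (log2 fold change of 0 or less, n = 6229) had a median of 0.14, with 9.68% called lower and 19.8% higher.

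**Figure D3:**
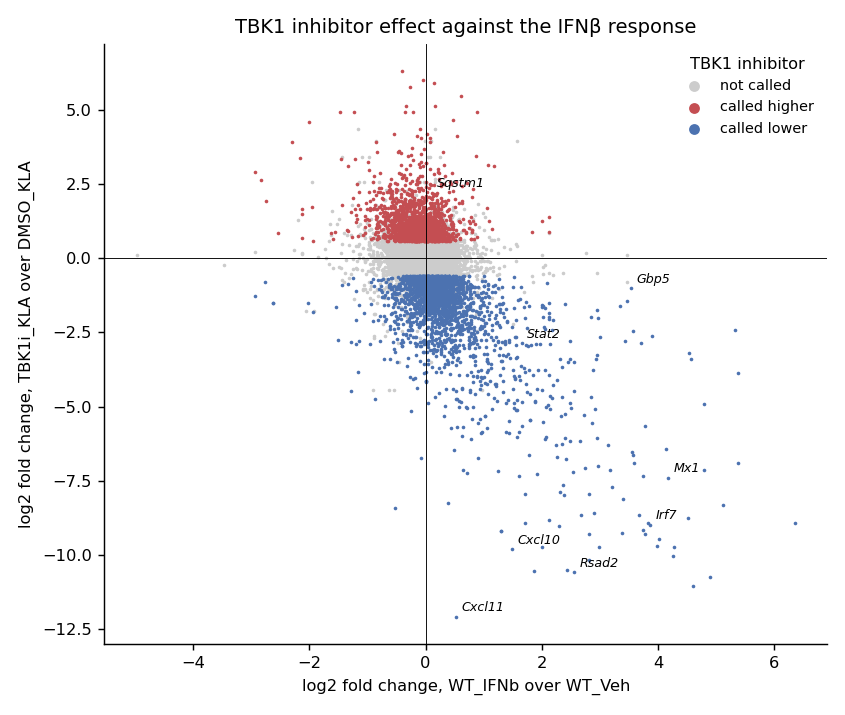
Log2 fold change of TBK1i_KLA over DMSO_KLA (y axis) against the log2 fold change of WT_IFNb over WT_Veh (x axis), with 1 point per gene tested in both, coloured by the TBK1 inhibitor call. Most genes with an interferon β response above 2 lie below 0 (median -4.64 for responses of 2 to 4), with Gbp5 close to the top of them and Cxcl11 low on the left, where interferon β had little effect.

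Most lowered genes were not called higher with interferon β. Of the 2260 lowered genes, 425 were called higher with it, and 1833 were tested there and not called higher. Genes induced by KLA were taken from the separate libraries of the RGFP966 table (KLA against Veh, 3399 genes, 27.9% of 12196 tested), because the DMSO_KLA libraries are themselves part of the inhibitor comparison. Those are BMDMs of wild-type mice at 6 h. Of 3319 KLA-induced genes tested with the TBK1 inhibitor, 1404 (42.3%) were lower and 229 (6.9%) higher. Of 424 KLA-induced genes that interferon β also induced, 379 (89.4%) were called lower with the TBK1 inhibitor and 7 (1.65%) higher, with a median of -2.65. Poly I:C mimics double-stranded RNA and acts through TLR3 and TRIF, and it induced 2974 genes (WT_PolyIC against WT_Veh at 6 h, 22.2% of 13407). Of its genes, 2815 were tested with the TBK1 inhibitor, with 1458 (51.8%) lower and 148 (5.26%) higher. Of 1919 KLA-induced genes that poly I:C also induced and that were not called higher with interferon β, 878 (45.8%) were lower and 106 (5.52%) higher, with a median of -0.52. The remaining 969 KLA-induced genes, called higher with neither, had 147 (15.2%) lower and 112 (11.6%) higher, with a median of -0.01. That is close to the 18.3% and 15.0% of all tested genes. Genes lowered by KLA behaved the other way, with 281 of 3848 (7.3%) lower and 1013 (26.3%) higher under the inhibitor (median 0.32). Genes tested in both tables that KLA neither raised nor lowered had 10.8% lower and 11.5% higher.

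**Figure D4:**
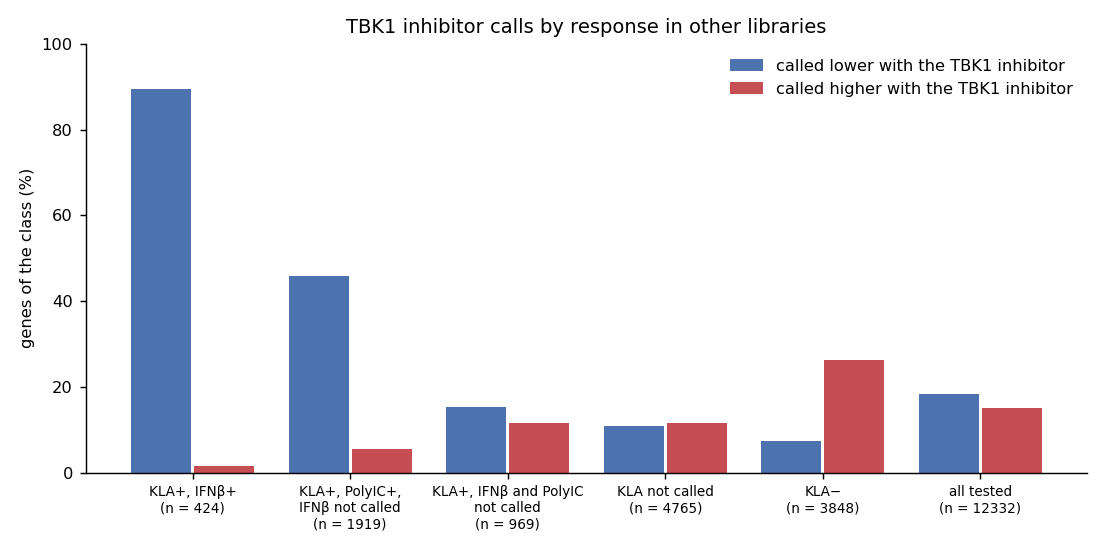
Percent of genes called lower (blue) and higher (red) with the TBK1 inhibitor (y axis) in classes set by other libraries (x axis), where + means called higher, − called lower and n is the number of genes of the class tested with the inhibitor. The share called lower goes from 89.4% in genes raised by both KLA and interferon β to 45.8% in genes raised by KLA and poly I:C but not called higher with interferon β, and to 15.2% in genes raised by KLA and called higher with neither. For interferon β and poly I:C, not called on the axis means not called higher.

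Chemokines fell into opposing groups. Cxcl9, Cxcl10 and Cxcl11, the ligands of CXCR3 that draw in activated T cells, nearly disappeared. Cxcl10 had 6031 and 6162 CPM in DMSO_KLA and 6.32 and 7.44 in TBK1i_KLA, and Cxcl9 222 and 232 in DMSO_KLA against 0.902 and 1.02 in TBK1i_KLA. Cxcl11 (listed as the non-coding transcript NR_038116) had 429 and 401 counts in DMSO_KLA and none in TBK1i_KLA, at least 147-fold lower. The neutrophil attractants that signal through CXCR2 went up. Cxcl1 rose from 152 and 182 CPM to 611 and 702, Cxcl3 from 118 and 148 to 778 and 879 and Cxcl5 from 0.442 and 0.463 to 4.61 and 3.95. The treated libraries of these genes were above the controls without overlap. Cxcl2, of the same group, had 1435 and 1682 CPM in DMSO_KLA against 1956 and 2243 in TBK1i_KLA (0.43 ± 0.10) and passed the fold threshold only with library totals (0.80). In all, 5 of 10 CXC chemokines were called lower and 3 higher, beside 18.3% and 15.0% of all tested genes. With library totals, 3 CXC chemokines were lower and 4 higher.

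Of 12 tested CC chemokines, 9 were called lower and 1 higher (median -3.09), beside 18.3% and 15.0% of all tested genes. Ccl5 (RANTES) had 5506 and 5533 CPM in DMSO_KLA and 633 and 653 in TBK1i_KLA, so 8.59-fold less, yet it stayed far over the 1.99 and 1.82 CPM of DMSO_Veh. Ccl12 (-7.35 ± 0.22), Ccl7 (-5.72 ± 0.10) and Ccl2 (-3.85 ± 0.06), monocyte attractants that bind CCR2, fell further. Ccl3 went from 6127 and 6684 to 721 and 801 CPM. The raised member was Ccl24 (6.96 and 9.95 to 20.3 and 24.6 CPM), which DESeq2 did not call, and Ccl17 had 12.6 and 11.5 CPM in DMSO_KLA against 13.1 and 12.4 in TBK1i_KLA. Chemokine receptors were mostly lower too, at 8 of 12, including Ccr2 (-3.60 ± 0.35), while the complement receptor gene C5ar1 rose (0.92 ± 0.04).

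Among 23 tested inflammatory cytokines, 13 were called lower and 5 higher (median -0.80), beside 18.3% and 15.0% of all tested genes. Tnfsf10 (the death ligand TRAIL) had 2074 and 2095 counts in DMSO_KLA (229 and 242 CPM) and 2 and 3 counts in TBK1i_KLA. The anti-inflammatory Il10 fell from 20.3 and 20.5 to 2.61 and 4.51 CPM and the interleukin 1 antagonist Il1rn from 1528 and 1641 to 302 and 315 CPM. Il18 (-2.76 ± 0.08) and Il6 (-1.27 ± 0.05) fell as well. Tnf and Il1b were not called. Tnf had 4079 and 4323 CPM in DMSO_KLA and 2779 and 2952 in TBK1i_KLA (-0.55 ± 0.03), just short of the fold threshold, which it passed without DMSO_KLA replicate 1 or without TBK1i_KLA replicate 2 (-0.60 each). Il1b had 10547 and 11672 CPM in DMSO_KLA against 8678 and 9082 in TBK1i_KLA (-0.32 ± 0.03). The groups did not overlap for either gene, as for 76.3% of all tested genes, and TBK1i_KLA was the lower one.

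The interleukin 12 family split. Il12b, the subunit shared by interleukins 12 and 23, had 941 and 1077 CPM in DMSO_KLA and 1228 and 1246 in TBK1i_KLA (0.29 ± 0.04, past the fold threshold only with library totals). Il12a, the other chain of interleukin 12, fell from 58.7 and 67.2 to 35.1 and 37.3 CPM (-0.80 ± 0.09, not called with library totals). Il23a, the other chain of interleukin 23 (chr10:128296140-128298084), went from 40 and 43 counts to 1275 and 1318 counts, or 4.42 and 4.98 to 128 and 149 CPM. Csf2 (GM-CSF) rose from 7.51 and 8.45 to 35.6 and 40.8 CPM and Lif from 4.86 and 4.63 to 14.6 and 28.5 CPM. In Lif the treated libraries themselves differed widely.

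The NFκB system itself was nearly level. Of 21 subunits, kinases and inhibitors, none was called lower and 3 were called higher in edgeR and in DESeq2, beside 18.3% and 15.0% of all tested genes, with a median of 0.08 and a range of -0.53 to 0.88. Without the fold threshold, an unadjusted p below 0.05 was reached by 5 lower and 10 higher members. Nfkbia (IκBα) had 45.4 and 45.7 CPM in DMSO_Veh, 1622 and 1624 in DMSO_KLA and 1803 and 1869 in TBK1i_KLA (0.18 ± 0.03). Tnfaip3 (A20) had 1558 and 1650.1 CPM in DMSO_KLA against 1393 and 1466 in TBK1i_KLA, Nfkb1 1222 and 1262 in DMSO_KLA against 1433 and 1458 in TBK1i_KLA, and Rela 326 and 303 in DMSO_KLA against 349 and 359 in TBK1i_KLA. The raised members were Bcl3 (0.88 ± 0.05), Tnip1 (0.71 ± 0.04) and the kinase gene Map3k7 (0.66 ± 0.08). With upper quartile scaling 5 and with library totals 7 of the 21 were called higher.

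Immediate early factors and mRNA-decay factors moved in both directions. Atf3, a repressor induced by TLR4, went from 555 and 585 to 62.4 and 71.2 CPM, below the 418 and 426 CPM of DMSO_Veh. Batf2 (-4.51 ± 0.09), Fos (-1.98 ± 0.15) and Egr1 (-1.85 ± 0.22) fell, and Maff (1.58 ± 0.09) and Fosl2 (0.74 ± 0.05) rose. In total 6 of 15 AP-1, ATF and EGR genes were lower and 3 higher, beside 18.3% and 15.0% of all tested genes. With library totals, 5 of these 15 were lower and 5 higher. Zfp36 (tristetraprolin), which destabilises cytokine mRNAs, fell from 1249 and 1189 to 318 and 347 CPM, and the MAP kinase phosphatases Dusp1 (-1.70 ± 0.06) and Dusp6 (-2.36 ± 0.18) fell with it. Dusp16 (0.68 ± 0.05) and Ier3 (0.91 ± 0.06) rose. Of that list 6 of 13 were lower and 3 higher, but 4 were lower and 5 higher with library totals.

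Ptgs2, Cp and Il12a, which the study names as targets of its NCoR/HDAC3/PGC1β complex, all fell. The study itself reports that the TBK1 inhibitor weakened their activation by KLA. Ptgs2 (cyclooxygenase 2) had 4.28 and 3.32 CPM in DMSO_Veh, 6386 and 7232 in DMSO_KLA and 2886 and 3253 in TBK1i_KLA. It was 2.22-fold lower (-1.15 ± 0.04, adjusted p = 3.38e-27). Cp (ceruloplasmin) had 387 and 400.3 CPM in DMSO_KLA and 164 and 144 in TBK1i_KLA, 2.55-fold lower, and Il12a was 1.74-fold lower as given above. The groups did not overlap for any of the 3, as for 76.3% of all tested genes. Of the further members of the prostaglandin, nitric oxide, arginine and itaconate list, Acod1, which makes itaconate, fell from 13042 and 13317 to 6081 and 6079.7 CPM and Gch1 from 282 and 273 to 105 and 118. Nos2 had 588 and 597 CPM in DMSO_KLA against 472 and 491 in TBK1i_KLA (-0.30 ± 0.04, not called), while Ass1, which recycles citrulline to arginine for it, fell (-2.65 ± 0.17). Arg2 rose from 1.66 and 0.926 to 5.82 and 7.22 CPM. Over the list, 7 of 13 were lower and 1 higher, beside 18.3% and 15.0% of all tested genes.

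The acute phase, iron and complement list had 9 of 19 lower and 2 higher, beside 18.3% and 15.0% of all tested genes. Cfb (complement factor B) fell from 279 and 277 to 14.7 and 17.5 CPM, and the serpin gene Serpina3f from 799 and 802 counts to 2 and 2 counts. Serpina3f and Serpina3g (-8.11 ± 0.20) are close paralogs whose reads may be shared. The iron exporter Slc40a1 (2.87 and 5.32 to 15.1 and 13.4 CPM) and the transferrin receptor Tfrc (1.11 ± 0.07) were the raised ones. Slc40a1 remained far under its 152 and 155 CPM in DMSO_Veh.

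Genes of MHC class I presentation were called lower in 17 of 20 cases (median -1.74), beside 18.3% of all tested genes. The other 3 were not called. Nlrc5, the transactivator of MHC class I genes, fell from 784 and 791 to 32.8 and 35.9 CPM, back to the 33.5 and 32.2 CPM range of DMSO_Veh. H2-T22 (-4.07 ± 0.07), the peptide transporter gene Tap1 (-3.70 ± 0.05) and the immunoproteasome subunit gene Psmb9 (-3.22 ± 0.08) followed. The classical heavy chains changed least, with H2-K1 at -0.49 ± 0.03 and H2-D1 at -0.26 ± 0.03, neither called. H2 genes are similar in sequence, and reads may be shared between them. MHC class II genes showed smaller falls (6 of 8, range -1.22 to -0.53), among them the transactivator gene Ciita (-1.13 ± 0.18). Only 4 of the 8 were called with upper quartile scaling or library totals.

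Of 14 tested costimulatory and adhesion ligands, 9 were lower and 1 higher, beside 18.3% and 15.0% of all tested genes. The CD28 ligands moved apart. Cd86 had 94.3 and 118 CPM in DMSO_KLA and 4.81 and 3.95 in TBK1i_KLA, lower than the 9.23 and 9.27 CPM of DMSO_Veh. Cd80 rose from 14.7 and 17.2 to 36.5 and 35.3 CPM. Cd274 (PD-L1) fell 4.97-fold from 2076 and 2104 to 415 and 425 CPM, and Cd69 fell 6.84-fold. Cd83 (-0.03 ± 0.04) and Icosl (0.14 ± 0.05) were among those not called. Cell death genes were lower in 12 of 26, and the other 14 were not called (median -0.53), whereas 6 were lower and 2 higher with library totals. Mlkl, the executioner of necroptosis, fell from 278 and 295 to 13.0 and 9.47 CPM, and Aim2 (-2.83 ± 0.08) and Casp8 (-1.75 ± 0.06) fell too. Ripk3, the kinase that activates MLKL, was at 11.1 and 9.03 CPM in DMSO_KLA against 10.3 and 9.81 in TBK1i_KLA.

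Genes of antioxidant defence and of glucose metabolism were those most often raised. Of 15 NRF2-linked genes, 8 were higher and 2 lower (median 0.61), beside 15.0% and 18.3% of all tested genes. Txnrd1 (thioredoxin reductase) went from 476 and 492 to 1531 and 1521 CPM, Srxn1 from 149 and 164 to 527 and 493 and Gclc from 33.9 and 33.4 to 91.1 and 92.0. Keap1, the adaptor that marks NRF2 for degradation, fell from 241 and 242 to 48.8 and 53.7 CPM, the level of DMSO_Veh (49.6 and 56.4). Nfe2l2, which encodes NRF2, was at 552 and 581 CPM in DMSO_KLA against 561 and 568 in TBK1i_KLA. Slc7a11, the cystine importer and a target of both NRF2 and ATF4, rose from 149 and 165 to 786 and 786 CPM. In the ATF4 and unfolded protein list, 8 of 19 were higher and 3 lower, and the serine synthesis genes Psat1 (-2.17 ± 0.13) and Phgdh (-1.58 ± 0.38) were among the lower ones, while Herpud1 (1.62 ± 0.07) and Eif2ak3 (1.35 ± 0.13) were higher.

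In the glycolysis and hypoxia list 11 of 21 were higher and 3 lower (median 0.86), beside 15.0% and 18.3% of all tested genes. Vegfa went from 7.85 and 9.26 to 47.2 and 52.3 CPM, part of the way to the 70.0 and 66.5 CPM of DMSO_Veh. The lactate exporter gene Slc16a3 rose from 78.2 and 71.4 to 254 and 276 CPM, over both other groups. The hexokinases Hk3 (-1.86 ± 0.04) and Hk1 (-1.15 ± 0.05) and the phosphofructokinase gene Pfkp (-0.77 ± 0.05, not called with library totals) fell. Gapdh was listed at only 0.111 and 0.579 CPM in DMSO_KLA against 2.01 and 1.69 in TBK1i_KLA, and its counts are uncertain because it has many near-identical pseudogenes.

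Lipid genes moved in both directions. Of 16 LXR-linked genes 4 were higher and 3 lower, beside 15.0% and 18.3% of all tested genes, with Abca1 higher (431 and 415 to 817 and 789.8 CPM) and Abcg1, the other cholesterol exporter, lower (300.2 and 295 to 160.3 and 163 CPM, not called with library totals). The receptor gene Nr1h3 (LXRα) fell (-1.47 ± 0.08), and Nr1h2 (LXRβ) was at 0.16 ± 0.05. Without DMSO_KLA replicate 2, 1 LXR-linked gene was called higher and 4 lower. Of 26 cholesterol synthesis genes 8 were lower and 3 higher, but 1 lower and 5 higher with library totals. The largest change was in Ch25h, an interferon-induced hydroxylase, which fell from 67.2 and 61.9 to 8.82 and 7.89 CPM. Srebf2, a master regulator of the pathway, showed almost none (-0.04 ± 0.04).

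Cell division genes had 5 of 25 higher and 3 lower, near the 15.0% and 18.3% of all tested genes. Mki67 rose from 112 and 131 to 414 and 406 CPM and Top2a from 7.07 and 9.14 to 18.05 and 20.5, while the replication genes Mcm6 (-2.56 ± 0.10), Pcna (-1.41 ± 0.07) and Ccne1 (-2.66 ± 0.26) fell. Macrophage identity genes were lower in 5 of 21 and higher in 4, also near the shares of all tested genes. With library totals these counts were 4 and 5. Fcgr1, the high-affinity Fc receptor for IgG, had 134 and 132 CPM in DMSO_Veh, 1187 and 1176 in DMSO_KLA and 7.22 and 8.23 in TBK1i_KLA, so it lay 153-fold under DMSO_KLA and under vehicle as well. Fcgr4 (-4.64 ± 0.08) and the efferocytosis receptor gene Mertk (-1.65 ± 0.08) fell, and the inhibitory receptor gene Fcgr2b was at 0.00 ± 0.04. Cebpa (2.21 ± 0.09), Mrc1 (0.93 ± 0.07), Csf1r (0.81 ± 0.03) and Lyz2 (0.79 ± 0.03) rose. Of 20 autophagy and lysosome genes 2 were higher (Gabarapl1, 1.30 ± 0.07, and Ulk1, 0.83 ± 0.11) and 1 lower (Lamp2, -1.06 ± 0.04), with 2 lower without DMSO_KLA replicate 1 and 5 higher with library totals.

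Most genes of the corepressor complex at the centre of the study were level, whereas 33.3% of all tested genes were called in either direction. Ncor1 had 165 and 172 CPM in DMSO_KLA and 167 and 163 in TBK1i_KLA, and Hdac3 29.9 and 31.1 in DMSO_KLA against 32.2 and 29.9 in TBK1i_KLA. Of 13 tested members of the list with the PGC1 and ERR genes, 1 was called, and 2 were lower without DMSO_KLA replicate 2 or without TBK1i_KLA replicate 1. That gene was Ppargc1b (chr18:61298136-61400431), which encodes the coactivator PGC1β. It had 3.26 and 3.76 CPM in DMSO_Veh, 13.5 and 12.7 in DMSO_KLA and 2.71 and 1.69 in TBK1i_KLA, so that both treated libraries were below both vehicle libraries. The log2 fold change was -2.55 ± 0.25 (adjusted p = 3.37e-23), a 5.87-fold fall.

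The raised genes with the largest changes, after Il23a and Plcl1, included the sialyltransferase gene St6gal1 (0.773 and 1.16 to 14.9 and 14.3 CPM), the kinase gene Rps6ka5 (1.77 and 2.43 to 28.9 and 26.6) and the GTPase genes Rhou (13.6 and 10.5 to 156 and 157) and Rnd1 (8.84 and 10.5 to 104 and 118). They did not share a pattern in vehicle. St6gal1 had 133 and 133 CPM in DMSO_Veh, above both other groups, whereas Rnd1 had 0.422 and 0.501 and Rhou 2.71 and 3.82, below both. In absolute CPM the largest rises were in Lyz2 (7284 and 7409 to 12858 and 12591 CPM), Tnfaip2, Sqstm1, Cd14 and Plek. The largest fall was in Actb (β-actin), from 19829 and 19776 CPM to 4763 and 4938 CPM, near the 4157 and 4086 CPM of DMSO_Veh, although its many pseudogenes make its counts uncertain. Actb alone made up 1.53% and 1.51% of counts in DMSO_KLA and 0.472% and 0.487% in TBK1i_KLA. Without the 50 most abundant genes the calls were 2246 lower and 1829 higher. Per kilobase of transcript, the 5 highest genes in DMSO_KLA were Fth1 (17866 CPM per kb), Ccl5 (10493), Actb (10357), Il1b (8296) and Ccl3 (8160.0), and in TBK1i_KLA these same genes were at 15966, 1222, 2537, 6632 and 969 CPM per kb.

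The inhibitor was then set beside the other ways in which the study perturbed the KLA response, with the difference between effects tested as an interaction in a joint fit. The first was RGFP966, an inhibitor of the deacetylase HDAC3 (RGFP966_KLA against KLA, wild-type BMDMs at 6 h, 2 libraries each). Of 12092 genes, 2316 (19.2%) had a more negative effect with the TBK1 inhibitor and 1645 (13.6%) a more positive one. Without RGFP966_KLA replicate 2, which carries a later date stamp than its partner, these counts were 2233 and 1589. In that fit 2168 genes (17.9%) were lower with the TBK1 inhibitor and 1277 (10.6%) with RGFP966, and 533 were lower with both, which is 24.6% of the former and 41.7% of the latter. All 37 antiviral genes tested had a more negative effect with the TBK1 inhibitor, and 8 of them were lower with RGFP966. Rsad2 had a log2 fold change of 0.30 ± 0.04 with RGFP966, a difference of -10.88 ± 0.09 between the inhibitors (adjusted p = 5.91e-113). Cxcl10 did fall with RGFP966 (-1.32 ± 0.05), by far less (-8.47 ± 0.10 apart). Il23a was at -0.12 ± 0.29 with RGFP966, so its rise differed between the inhibitors (5.00 ± 0.37, adjusted p = 8.33e-24). Nos2 and Il12b showed the opposite order, with -2.01 ± 0.15 and -1.50 ± 0.06 under RGFP966 and a more positive effect of the TBK1 inhibitor by 1.71 ± 0.21 and 1.80 ± 0.08.

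For the study's target genes the inhibitors were closer. Ptgs2 fell by 1.15 on the log2 scale with the TBK1 inhibitor and by 0.82 with RGFP966, a difference of -0.32 ± 0.09 that had an adjusted p of 0.00339 but stayed under the fold threshold. Il12a differed by -0.04 ± 0.13 (adjusted p = 0.856) and Cp by -0.78 ± 0.08 (adjusted p = 2.66e-16, called). Ppargc1b fell with both, by 2.55 with the TBK1 inhibitor and by 2.54 with RGFP966. The difference was -0.01 ± 0.31 (adjusted p = 0.988), which at this SE does not show that the effects are equal. The NFκB list had 5 of 21 genes with a more positive effect of the TBK1 inhibitor and 16 with no called difference.

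The second was the libraries labelled Pgc1b_flox_Cre_KLA against Pgc1b_flox_KLA, BMDMs at 6 h with 2 libraries each, in which LysM-Cre, active in myeloid cells, acts on a floxed Ppargc1b gene. The transcript count over the whole gene did not fall in the libraries labelled Cre (0.39 ± 0.24, adjusted p = 0.191), so these counts do not check the deletion, which may cover part of the gene. The study gives an immunoblot of PGC1β protein in macrophages of both genotypes, which was not re-examined here. Of 12148 genes, 1433 (11.8%) had a more negative effect with the TBK1 inhibitor than with Cre and 686 (5.65%) a more positive one. In this fit 2095 genes (17.2%) were lower with the TBK1 inhibitor and 1575 (13.0%) with Cre. The 1101 lowered in both were 52.6% of the former and 69.9% of the latter. Cre also lowered 35 of 38 antiviral genes tested (median -1.69), and all 38 had a more negative effect with the TBK1 inhibitor (median -5.47). Stat2 was at -1.08 ± 0.06 and Rsad2 at -1.77 ± 0.08 with Cre, and the effects differed by -1.78 ± 0.08 and -8.82 ± 0.16. Ifnb1 itself was at 0.44 ± 0.30 with Cre (adjusted p = 0.253), and that effect differed from the one of the TBK1 inhibitor (adjusted p = 8.52e-09).

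Several inflammatory genes separated the perturbations. Tnf was -0.55 ± 0.05 with the TBK1 inhibitor and 1.17 ± 0.05 with Cre, a difference of -1.73 ± 0.08 (adjusted p = 9.48e-22). Cp (-2.18 ± 0.09) and Nos2 (-1.43 ± 0.06) fell with Cre, and the effect of the TBK1 inhibitor was more positive by 0.82 and 1.13. Il23a rose with both, and more with the TBK1 inhibitor (4.88 ± 0.16 against 2.53 ± 0.15), while Lif rose more with Cre (2.17 ± 0.27 against 3.48 ± 0.30, adjusted p = 0.022). Ptgs2 (-0.34 ± 0.10) and Il12a (-0.10 ± 0.18) had no called difference. Of 15 NRF2-linked genes, 8 had a more positive effect of the TBK1 inhibitor than Cre and 5 were lower with Cre. In the fit with RGFP966, 9 of the 15 were higher with RGFP966 (median 0.68, against 0.61 with the TBK1 inhibitor), beside 1692 of all 12092 genes. The effect of the TBK1 inhibitor was more negative in 7 of the 15 and more positive in 2. Of 22 cell division genes, 13 had a more negative effect of the TBK1 inhibitor than Cre, and 18 were higher with Cre, beside 1634 of all 12148 genes. Against RGFP966 the direction was the other way, with a more positive effect of the TBK1 inhibitor in 11 of 23 and a more negative one in 3, and 10 were lower with RGFP966 (median -0.65). The tables come from different cells and carry different date stamps, which cannot be told apart from these differences in effect.

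**Figure D5:**
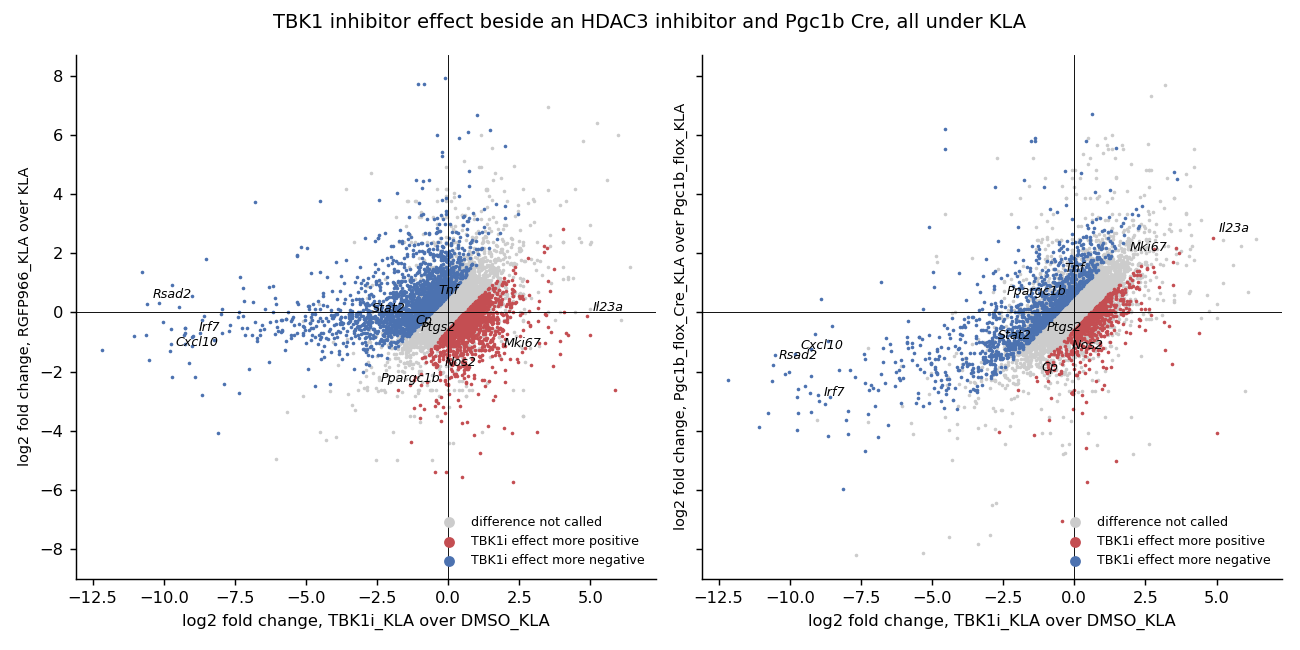
Log2 fold change of TBK1i_KLA over DMSO_KLA (x axis) against that of RGFP966_KLA over KLA (left, y axis) and of Pgc1b_flox_Cre_KLA over Pgc1b_flox_KLA (right, y axis), with 1 point per gene tested in the joint fit and in the TBK1 inhibitor comparison, coloured by the call of the difference between effects. Rsad2, Irf7 and Cxcl10 lie far to the left, at heights of 0.30, -0.81 and -1.32 with RGFP966, while Ppargc1b lies on the diagonal with RGFP966 (-2.55 against -2.54) but not with Cre (0.39).

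The part of the KLA response that was left under the inhibitor can be read from the levels given here. Of the genes above, Socs3, Jak2, Nfkbia, Il1b and Icosl stood in TBK1i_KLA close to DMSO_KLA, whereas Rsad2, Ifit2, Irf7, Cd86, Fcgr1 and Ppargc1b stood below DMSO_Veh. The comparison with DMSO_Veh is one of CPM levels and was not tested.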

How the data were processed

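RNA-seq of polyA RNA was used from BMDMs in the groups DMSO_Veh, DMSO_KLA and TBK1i_KLA, with 2 libraries each, and from the groups of the other tables named in the text. The authors mapped single-end reads to mm10 with STAR and deposited whole-number counts of reads in exons per gene, made with HOMER without length or depth adjustment; replicates were not pooled, and versions are not given in the sources used here. The command shows no strand option, although strand-specific libraries are described, so genes with an overlapping antisense partner are uncertain. Symbols were taken from the annotation column of each table.

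From these counts, CPM values with TMM factors and a quasi-likelihood test were computed with edgeR 4.0.16 in R 4.3.3, on all 6 libraries of the table, for genes passing edgeR's filter on low counts. P-values were adjusted by Benjamini-Hochberg over all 12332 tested genes. Calls needed both an adjusted p below 0.05 and more than a 1.5-fold change, and an SE was derived from the F statistic of the test. Differences between perturbations were interaction terms in a joint fit of 2 tables on shared transcripts. The fit was tested on simulated data with changes balanced in direction, so that run does not address the dependence on scaling.

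Genes named are a fixed set of TBK1, KLA and NCoR genes, the 10 called genes with the largest change in each direction at 5 CPM or more, up to 4 called genes in each direction and the 2 least changed genes of each list, the 5 highest genes per length, and the 5 largest changes in CPM in each direction. Members and lists were chosen with earlier results of these data known. Alternatives were DESeq2 1.42.0, other scalings, filters and fold thresholds, thinning to the lowest total, leaving out short genes or each library, and a replicate block. Promoters were matched by RefSeq accession. Same-numbered libraries did not deviate together (correlations of -0.00908, 0.02 and -0.0129), so no pairing was assumed. A few genes that the rule names are not reported here.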

Additional observations from a re-analysis of the deposited data

How the results depend on the processing

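The main counts (2260 genes lower, 1852 higher) moved most with scaling and with the fold threshold. With library totals and no scaling factors they were 1429 and 3987, without a fold threshold 3631 and 3505, and with a threshold of 2-fold 1447 and 890; upper quartile scaling gave 1875 and 2472 and DESeq2 1998 and 1728. Leaving out each DMSO_KLA or TBK1i_KLA library in turn gave 2171 to 2219 lower and 1721 to 1840 higher. With a replicate block, which the labels' numbers allow but no shared origin of the libraries backs, the counts were 2234 and 1831, the differences from RGFP966 were 2297 more negative and 1637 more positive, and those from Cre were 1400 and 673. With classes set at a fold above 2, the share called lower was 51.3% for KLA, 46.2% for KLA not interferon β, 58.4% for KLA and poly I:C not interferon β, and 20.8% for KLA with neither, and 1.76% of interferon β-induced genes and 0.418% of genes induced by both KLA and interferon β were called higher.

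Leaving out each DMSO_KLA or TBK1i_KLA library in turn, but none of the libraries that set the classes, the share called lower or higher was 78.1% to 79.1% and 3.53% to 4.11% for genes induced by interferon β, 50.2% to 51.5% and 4.86% to 5.24% for poly I:C, 40.9% to 42.3% and 6.52% to 6.91% for KLA, 88.8% to 89.4% and 1.4% to 1.65% for KLA and interferon β, 33.9% to 35.6% and 7.13% to 7.6% for KLA not interferon β, 44.3% to 46.4% and 5.33% to 5.55% for KLA and poly I:C not interferon β, and 13.5% to 14.4% and 10.7% to 11.6% for KLA with neither. The same, with RGFP966_KLA replicate 2 also left out in turn, gave 2180 to 2233 and 1578 to 1626 differences from RGFP966; it gave 1280 to 1313 and 584 to 631 from Cre, where no library of the Pgc1b table was left out. With an added C after the ISRE core, 0.819% of all promoters held it. Of 243 named genes tested, 173 kept their direction and side of the threshold under every alternative that tested them. No named gene reversed. Where a call was lost, the cause was not tested beyond what each alternative's construction shows. Depth limits statements on genes near 3 counts per library. The alternatives with library totals and without the 50 most abundant genes were chosen after seeing the data, as was leaving out RGFP966_KLA replicate 2.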
